A study of Mus musculus with 2 samples.

Results

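The secreted Wnt antagonists examined here are the 4 frizzled-related genes named Sfrp1, Sfrp2, Sfrp4 and Sfrp5, the related Frzb, the Dickkopf genes Dkk1, Dkk2 and Dkk3, and Wif1 and Sost. They are 10 of the 18194 genes that the array could be read for by name, and they were taken as every probe set whose platform annotation gives that single symbol, which yielded 19 probe sets. The group was chosen by gene family and selected on the signal ratio between these same 2 arrays, in which Sfrp1 and Sfrp2 stood out, so that ratio is described here and not tested.

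The cells were osteoblastic cells of C57Bl/6 mouse embryos at stage E18.5, prepared from tibia and femur, with 1 array for Ebf2-/- (knockout) and 1 array for Ebf2+/- (heterozygote). Cells of both genotypes carry a lacZ marker at Ebf2, were loaded with FDG, which fluoresces once the lacZ product cleaves it, were sorted by flow cytometry for that marker, and were expanded without passaging in alpha MEM with 10% serum. Per the labels 3 mice stood behind each genotype, with no word on pooling, and wild-type cells were not analysed here. The heterozygote therefore also lacks 1 functional copy of Ebf2 and is the only available baseline. With 1 array per genotype there is no spread between animals, no test and no p-value, and every value below is a single measurement.

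Secreted Wnt antagonists act outside the cell in different ways. Proteins of the frizzled-related family share a cysteine-rich domain with the frizzled receptors and can bind Wnt ligands, as the WIF domain of Wif1 does. Dickkopf proteins such as Dkk1, and sclerostin, the product of Sost, bind instead the co-receptors Lrp5 and Lrp6. In bone, Wnt signalling through these receptors promotes osteoblast formation, and sclerostin from osteocytes is a known brake on it. By its title, the series asks how Ebf2 affects blood stem cells from outside those cells, and proteins that osteoblastic cells release into their surroundings bear on that question.

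The values are MAS5 signals, linear intensities that the authors scaled to a common average on both arrays. A probe set was treated as above background when it exceeded the floor of its array, the 95th percentile of 86 olfactory, vomeronasal and taste receptor probe sets, which was 23.8 on the knockout and 17.8 on the heterozygote array. A gene counted as measured when its brightest probe set exceeded the floor of either array, which held for 11785 genes. The 3' over 5' signal ratio of beta-actin, a sign of RNA integrity, was 2.79 on the knockout and 1.97 on the heterozygote array, and that of Gapdh was 1.60 on the knockout and 1.30 on the heterozygote array; their part in the ratios below was not tested. Ebf2 itself did not check the labels, since 2 of its 3 probe sets were above the floor on 1 array each, in opposite genotypes, and the third on neither. The osteoblast collagen Col1a1 (12784 in knockout and 5478 in heterozygote cells) and the osteoblast transcription factor Sp7 (53.3 and 83.7) were above background. So was Alpl, also on the osteoblast list (51.8 in knockout and 25.4 in heterozygote cells). The mineralising matrix gene Ibsp was below the floor on both arrays, as were Dmp1, Phex, Mepe and Fgf23, markers of osteocytes.

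Across the 10 antagonists, 7 were measured, 6 of them on both arrays, and Sfrp5, Dkk1 and Sost were below the floor on both. Of the 7 measured genes, Sfrp2, Sfrp1 and Dkk2 had a signal in the knockout that was higher by 2-fold or more, and Dkk3 a signal lower by 2-fold or more. Among all 11785 measured genes, 6.30% passed 2-fold upwards and 3.46% downwards, and since the members were chosen with this contrast known, nothing is read from their count against that background. The directions over all genes depended on the scaling: 742 genes were higher and 408 lower with the deposited scaling, against 566 higher and 557 lower with the arrays scaled to 18 spike-in probe sets. The 4 antagonists past 2-fold were the same genes under both scalings. The median log2 ratio of knockout over heterozygote was 0.35 over the 7 measured members, beside 0.03 over all measured genes. Wif1 was entered at the floors. Over the 6 members that exceeded the floor on both arrays the median was 0.89, beside 0.0008 over all 10057 such genes.

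**Figure D1:**
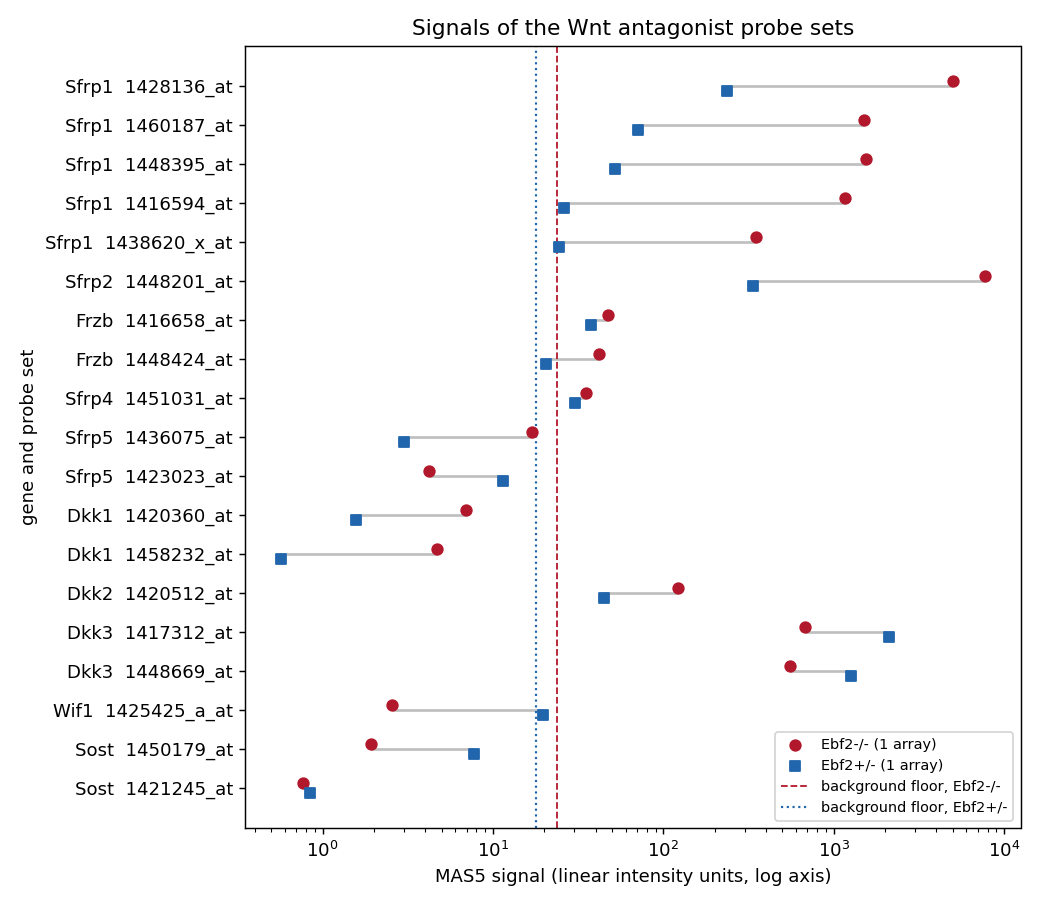
MAS5 signal (linear intensity units on a log axis) of each of the 19 probe sets of the 10 Wnt antagonists, with circles for the Ebf2-/- array, squares for the Ebf2+/- array and vertical lines at the background floors of 23.8 and 17.8. The Sfrp1 and Sfrp2 circles stand far to the right of their squares, the Dkk3 circles stand to the left, and the Dkk1, Sfrp5 and Sost points lie left of the floor of their own array.

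Sfrp2, whose product binds Wnt ligands through the frizzled-type domain, had a signal of 7740.0 in knockout and 334 in heterozygote cells by its only probe set. The knockout value was 23.1-fold higher (log2 ratio 4.53). Of the 10057 genes above background on both arrays 2, Sfrp2 included, had a ratio this high. Both signals were well clear of background, at 325 times the floor in the knockout and 18.8 times in the heterozygote. A pseudocount of 50 on both signals gave a log2 ratio of 4.34.

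The sequence before the start of Sfrp2 is printed together with that of Dkk2, because these are the members higher in the knockout that the promoter table used here holds. The table is RefSeq's for build GRCm38.p6 and gave a 300-base window (250 bases before and 50 after the start) for 7 of the 10 members, namely Sfrp2, Frzb, Sfrp5, Dkk1, Dkk2, Wif1 and Sost. The 250 bases before the start of Sfrp2 lie at chr3:83766071-83766320 on the + strand and those of Dkk2 at chr3:132085042-132085291 on the + strand. Capitals mark a match to any of the motifs TCCCNNGGGA (the palindrome bound by EBF proteins), its inner part CCCNNGGG, CTTTGAT (bound by TCF and LEF factors) or TATAAA (the TATA box), searched on both strands.
Sfrp2: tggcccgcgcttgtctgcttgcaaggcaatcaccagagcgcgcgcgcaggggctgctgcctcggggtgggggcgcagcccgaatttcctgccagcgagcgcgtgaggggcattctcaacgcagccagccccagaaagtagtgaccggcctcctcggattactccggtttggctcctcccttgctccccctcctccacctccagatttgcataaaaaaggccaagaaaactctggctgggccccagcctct
Dkk2: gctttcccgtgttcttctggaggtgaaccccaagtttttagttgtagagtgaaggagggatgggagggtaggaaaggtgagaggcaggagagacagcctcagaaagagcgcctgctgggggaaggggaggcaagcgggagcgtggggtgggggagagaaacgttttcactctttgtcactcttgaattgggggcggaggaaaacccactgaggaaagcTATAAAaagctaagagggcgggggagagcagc

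The full EBF palindrome was found in 0 of the 7 windows and in 0.904% of all 32851 promoter windows of that length in the table. Its inner part, contained in every palindrome match, occurred in 3 of the 7 windows and in 13.7% of all. In Sfrp2 it read CCCCCGGG and began at base 13 after the start, outside the printed stretch, while in Frzb and Sfrp5 it began 232 and 60 bases before the start. The TCF/LEF motif was in 0 of the 7 windows and in 3.73% of all. The letters TATAAA, on either strand and at any position, were in 3 of the 7, those of Dkk2, Dkk1 and Wif1, and in 13.6% of all. In Dkk2 the match began 32 bases before the start and in Dkk1 54 bases before it. In Wif1 it was on the opposite strand, 232 bases before the start. The Sfrp2 stretch had 63.6% G and C bases and 16 CpG pairs and the Dkk2 stretch 55.6% and 7, where the medians over all promoters were 52.4% and 6. A match of these letters is a description of the sequence and does not show that a factor binds there.

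Sfrp1, a Wnt-binding protein of the same subfamily as Sfrp2, was higher in the knockout by all 5 of its probe sets. The brightest probe set, 1428136_at, read 5029 in knockout and 238 in heterozygote cells, a 21.2-fold difference. Probe set 1448395_at read 1538 in knockout and 52.1 in heterozygote cells (29.5-fold), and probe set 1460187_at read 1506 and 70.9 (21.2-fold). The highest ratio came from a probe set whose heterozygote signal was close to background: 1416594_at read 1169.9 in knockout and 26.1 in heterozygote cells, or 44.9-fold, with the heterozygote signal at 1.46 times the floor. The lowest came from 1438620_x_at, with 347 in knockout and 24.4 in heterozygote cells, or 14.2-fold; the ending of its name marks a probe set that may also bind other transcripts.

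Each Sfrp1 probe set thus read higher in the knockout, by sizes that differed between probe sets. The mean log2 ratio over them was 4.60 ± 0.62 (SD over 5 probe sets, which are not replicates and of which 3 were designed from the same transcript accession). The pooled SD between probe sets of 1 gene was 0.44 over 4119 genes. With a pseudocount of 50, which damps ratios of dim signals, the 5 log2 ratios lay between 2.42 and 4.14. The log2 ratio of the brightest probe set of Sfrp1, 4.40, was reached by 5 of the 10057 genes, itself included, and it differed from that of Sfrp2 by less than the SD between probe sets of a gene. Only 5 of all 11785 measured genes (0.0424%) were at least 20-fold higher in the knockout, Sfrp1 and Sfrp2 among them.

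**Figure D2:**
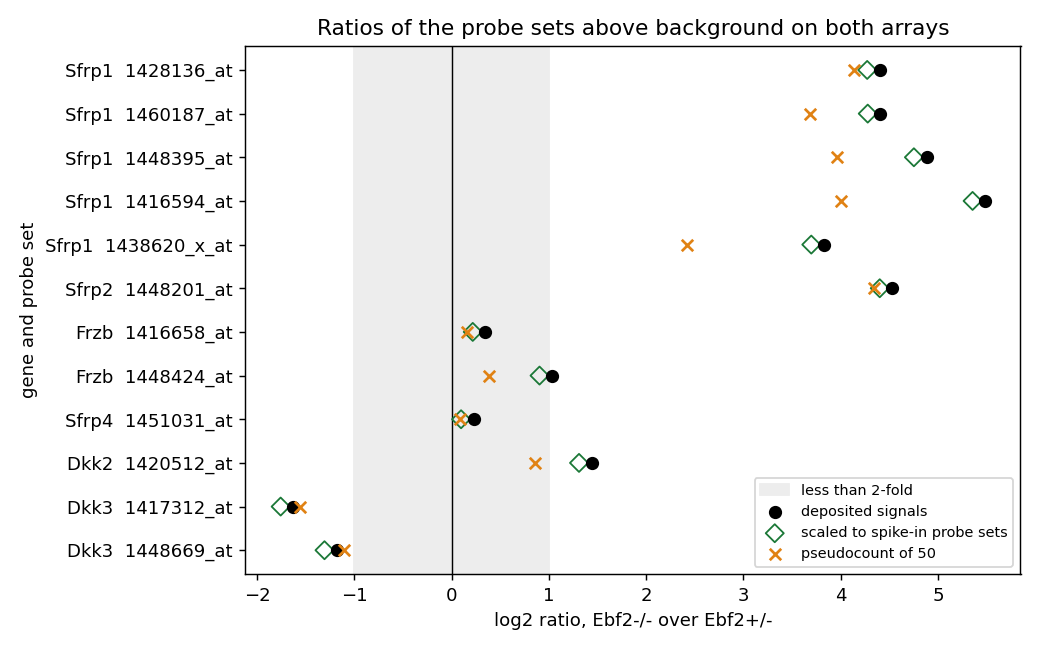
Log2 ratio of Ebf2-/- over Ebf2+/- for the 12 antagonist probe sets above background on both arrays, from the deposited signals (circles), after scaling to spike-in probe sets (diamonds) and with a pseudocount of 50 (crosses); the shaded band marks less than 2-fold. All 5 Sfrp1 probe sets and the Sfrp2 probe set lie right of the band and both Dkk3 probe sets left of it in each of these settings, while Dkk2 enters the band with the pseudocount.

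The remaining frizzled-related genes were dim. Frzb, first described as a cartilage-derived Wnt-binding protein, read 47.6 in knockout and 37.4 in heterozygote cells by probe set 1416658_at (1.27-fold higher) and 41.9 and 20.5 by probe set 1448424_at (2.05-fold higher). The probe sets thus fell on different sides of 2-fold, and with spike-in scaling both were under it, at log2 ratios of 0.22 and 0.90. Relative to the floor of its own array, 1416658_at stood at 2.00 in the knockout and 2.10 in the heterozygote, and 1448424_at at 1.76 in the knockout and 1.15 in the heterozygote, so the probe sets of Frzb ran in opposite directions on that scale. Sfrp4, a family member also known for its link to phosphate handling, read 35.3 in knockout and 30.1 in heterozygote cells, 1.17-fold higher, but it stood at 1.48 times the floor of the knockout array and 1.69 times that of the heterozygote array. No direction is therefore given for Frzb or Sfrp4. Among measured genes within 1 log2 unit of the mean signal of Frzb, 11.0% passed 2-fold upwards in the knockout, against 4.50% within 1 unit of Sfrp2 and 3.88% within 1 unit of Sfrp1.

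Sfrp5 was below the floor on both arrays by both probe sets, and the raw signals ran in opposite directions. They were 16.9 in knockout and 3.01 in heterozygote cells for 1436075_at, and 4.21 and 11.4 for 1423023_at. No fold is given for such values.

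Dickkopf genes differed among themselves. Dkk2, whose product binds Lrp6 and can antagonise or, depending on the context, activate Wnt signalling, read 122 in knockout and 44.9 in heterozygote cells by its only probe set. The knockout signal was 2.71-fold higher (log2 ratio 1.44), at 5.11 times the floor in the knockout and 2.52 times in the heterozygote. Its ratio was the least secure of those past 2-fold, since a pseudocount of 50 brought it to a log2 ratio of 0.86, under 2-fold. Of the 10057 genes, 257 had a ratio at least as high, and within 1 log2 unit of its mean signal 8.46% of measured genes passed 2-fold upwards.

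Dkk3, the divergent Dickkopf member that is not known as a ligand of Lrp5 or Lrp6, was lower in the knockout by both probe sets. Probe set 1417312_at read 679 in knockout and 2098 in heterozygote cells, 3.09-fold lower. Probe set 1448669_at read 556 in knockout and 1257 in heterozygote cells, 2.26-fold lower. All 4 Dkk3 signals stood far above background, at 23.4 to 118 times the floor of their array. With a pseudocount of 50 the log2 ratios were -1.56 and -1.11. The 2 probe sets were designed from the same accession, and their mean log2 ratio was -1.40 ± 0.32 (SD over 2 probe sets). Among the 10057 genes, 92 had a ratio as low as the brighter probe set or lower. Of the 1377 other measured genes within 1 log2 unit of its mean signal, 1.09% were at least 2-fold lower.

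Dkk1, the best known inhibitor of Lrp6 and itself a Wnt target, was below the floor on both arrays. Its probe sets read 6.92 in knockout and 1.57 in heterozygote cells (1420360_at), and 4.71 and 0.568 (1458232_at). The highest of these signals stood at 0.29 times the floor of its array, so no difference was measurable. Wif1 read 2.55 in knockout and 19.8 in heterozygote cells. Only the heterozygote signal was above its floor, at 1.11 times it, and it did not reach the floor of the knockout array, so no fold is given. Sost read 1.93 and 0.765 in knockout cells and 7.71 and 0.846 in heterozygote cells by its 2 probe sets, all below background. In the same cells 5 of the 6 osteocyte genes, Sost included, were below the floor on both arrays, and the remaining Pdpn is not restricted to osteocytes.

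**Figure D3:**
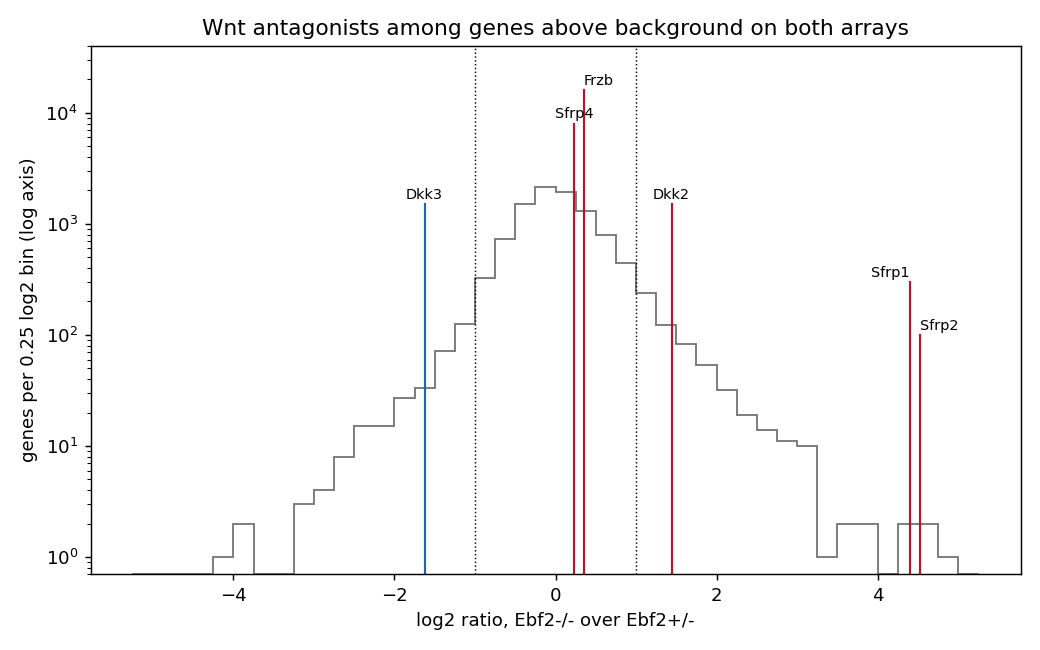
Number of genes (log axis) per bin of 0.25 in the log2 ratio of Ebf2-/- over Ebf2+/- among the 10057 genes above background on both arrays, with vertical lines at the 6 antagonists measured on both and dotted lines at 2-fold. Sfrp1 and Sfrp2 lie at 4.40 and 4.53 in the far right tail, Dkk2 at 1.44, Frzb and Sfrp4 in the bulk, and Dkk3 at -1.63 in the left tail.

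The antagonists were then set beside other parts of the pathway. These lists, like the members, were chosen with earlier results of these data known, so their shares are described and not tested. Of 18 other Wnt inhibitors on the array, inside the cell or outside it, 13 were measured, and 0 passed 2-fold either way (median log2 ratio 0.38). With 6.30% of all measured genes past 2-fold upwards and 3.46% downwards, a count of 0 among 13 is near the background. Those with the largest ratios were Shisa2, of a family shown in Xenopus to retain frizzled receptors inside the cell, with 36.6 in knockout and 19.2 in heterozygote cells, the Dishevelled-binding feedback inhibitor Nkd1 (82.5 and 45.4) and Igfbp4, an IGF-binding protein that can also bind Lrp6 (8824 and 5184). Both Shisa2 signals lay near the floors of 23.8 and 17.8, so no direction is given for it. Kremen1, a co-receptor for Dkk1 and Dkk2, singled out after its values were seen, read 112 in knockout and 108 in heterozygote cells.

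Of the 16 measured receptors and co-receptors, which these antagonists compete with or bind, 6 (37.5%) passed 2-fold upwards in the knockout and 2 (12.5%) downwards. Of all measured genes, 6.30% did so upwards and 3.46% downwards. The median log2 ratio of the 16 receptors and co-receptors was 0.77. Lrp6, the co-receptor that Dkk2 binds, read 612 in knockout and 211 in heterozygote cells. The Wnt5a receptor Ror1 read 330.1 in knockout and 54.3 in heterozygote cells, and Fzd4 was 8.47-fold higher. Of 19 ligands only 6 were measured. Wnt5a, a ligand of mostly beta-catenin-independent signalling, was the 1 past 2-fold, with 417 in knockout and 175 in heterozygote cells. Of 6 measured genes of the R-spondin axis, whose ligands raise the number of Wnt receptors on the cell, 3 passed 2-fold upwards and 0 downwards. Among these 3, Rspo1 was above background in the knockout only (44.7, with 11.3 in the heterozygote), so its ratio is a bound.

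Of 14 measured genes listed as targets of canonical Wnt signalling, 3 (21.4%) passed 2-fold upwards in the knockout and 0 downwards. Of all measured genes, 6.30% did so upwards and 3.46% downwards. The median log2 ratio of the 14 targets was 0.49. The 3 targets past 2-fold were the R-spondin receptor Lgr5, which is also in the R-spondin list, the activin-binding protein Fst, with 919 in knockout and 331 in heterozygote cells, and the tight junction gene Cldn1, which was above background in the knockout only (44.8, with 0.734 in the heterozygote). The negative regulator Axin2 read 29.4 in knockout and 40.5 in heterozygote cells, with the knockout signal near its floor of 23.8. Ccnd1, which encodes cyclin D1, read 1782 and 3401, and Lef1, above background in the heterozygote only, read 6.44 and 32.8. These 3 were singled out after their values were seen, and none is counted past 2-fold. Axin2 was 1.38-fold lower in the knockout, Ccnd1 1.91-fold, and Lef1 at least 1.38-fold, a bound set by the floor. Znrf3 also read lower (34.6 in knockout and 44.7 in heterozygote cells), whereas most of the measured targets read higher. The signals of Axin2, Lef1 and Znrf3 were dim, so no direction is given for them. The target list thus held ratios on both sides of 0, and their relation to the Sfrp1 and Sfrp2 signals was not tested. A list of intracellular transducers also held Porcn and Wls, genes of Wnt ligand secretion. Of its 14 measured genes 1 (7.14%) passed 2-fold upwards, a share near that of all measured genes (6.30%). It was the DNA-binding factor Tcf7l2, with 128 in knockout and 43.3 in heterozygote cells.

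**Figure D4:**
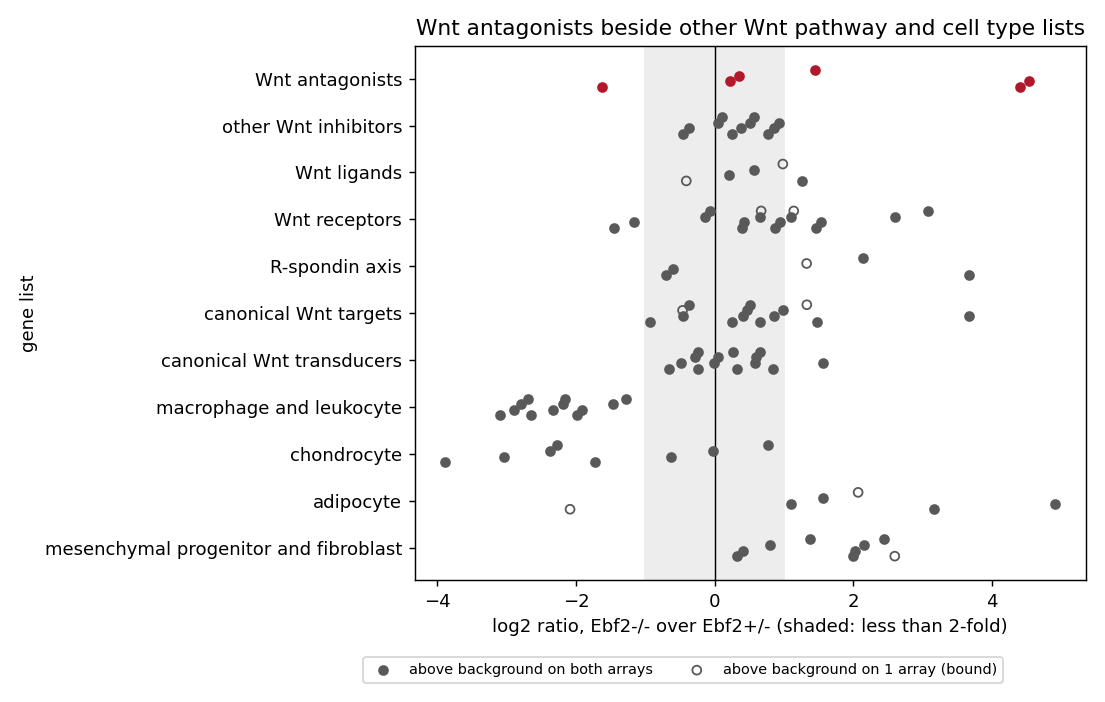
Log2 ratio of Ebf2-/- over Ebf2+/- for the genes given a fold in each list, with filled points above background on both arrays, open points above background on 1 array only (a bound), and shading for less than 2-fold. The Wnt antagonists in the top row spread from -1.63 to 4.53, the other Wnt inhibitors all lie within 2-fold, the macrophage and leukocyte genes all lie left of the band, and 6 of 9 mesenchymal progenitor and fibroblast genes lie right of it.

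Markers of other cell types differed between the arrays together with the antagonists. Their lists were also chosen with earlier results of these data known, so the shares below are a description and not a test. Of all measured genes, 6.30% passed 2-fold upwards and 3.46% downwards. Of 13 macrophage and leukocyte genes 12 were measured, and all 12 passed 2-fold downwards in the knockout; the list's summed signal was 1850.0 in knockout and 7971 in heterozygote cells, and Itgam was below the floor on both arrays. Of 9 measured chondrocyte genes 5 passed 2-fold downwards and 0 upwards, with summed signals of 5514 and 15111 in knockout and heterozygote cells; Matn1, Matn3 and Col10a1 were below the floor on both. Of 9 measured mesenchymal progenitor and fibroblast genes 6 passed 2-fold upwards and 0 downwards, with a summed signal of 16270 in knockout and 6308 in heterozygote cells and Pi16 below the floor on both. Of 6 measured adipocyte genes 5 passed 2-fold upwards and 1 downwards (summed signals 2898 and 819), and Lep was below the floor on both. The part of these shifts in the antagonist values was not tested, and in bulk RNA a change in the number of cells of a type and a change in RNA per cell cannot be told apart.

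Genes near Sfrp2, Sfrp1 and Dkk3 were sought by the distance between log2 signals on the 2 arrays. The antagonists themselves were left out of the search, so Sfrp1 and Sfrp2 were not set against each other. Outside the group, the genes most like Sfrp2 were the proteoglycan gene Dcn (1.70 log2 units away), the microfibril gene Mfap5 (1.81) and the surface antigen gene Thy1 (1.82). Each was about 4-fold higher in the knockout (4.43-fold, 3.97-fold and 4.08-fold). The genes outside the group most like Sfrp1 were Emb, Ltbp2 and the Wnt agonist gene Rspo3, at distances of 1.55, 1.57 and 1.63. Emb, the nearest of these to Sfrp1, was 5.74-fold higher in the knockout, so the ratios of these 6 genes were all smaller than those of Sfrp1 and Sfrp2. Dkk3 had near neighbours at 0.41 to 0.52 log2 units: Lyz2, a macrophage lysozyme (702 in knockout and 2780.1 in heterozygote cells), the lysosomal saposin precursor gene Psap (908 and 1929.6) and the matrix gene Tgfbi (925 and 1739). With 2 arrays this measure has 2 points per gene, and it describes the signals without bearing on shared function or control.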

How the data were processed

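The authors deposited 1 linear intensity per probe set and array, for 45101 probe sets of the Affymetrix Mouse Genome 430 2.0 design. The submitters' processing notes name MAS5 as the tool, without a version in the sources used here. With 2% of the deposited intensities trimmed at each end, both arrays averaged 100.001, so scaling had set their means equal, which hides any change common to most genes. Probe sets were named from the platform annotation: 34958 had 1 symbol, 932 had several (0 of them naming a member) and 9211 were not listed.

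From these values the following was computed with Python 3.11.15, numpy 2.4.6 and pandas 2.3.3. A gene took the value of its brightest probe set, by the mean of log2 signals. Signals below the floor were set to it before the log2 ratio was taken; a ratio with 1 signal above its floor is a bound, and none is given where that signal did not exceed the other array's floor. No test was made, since each genotype has 1 array, and the number of arrays limits the precision. The ratio procedure was tested on simulated data. Alternatives were the mean over probe sets, leaving out probe sets whose names end in _s_at, _x_at or _a_at, other floors, a pseudocount, and 3 other scalings. Named were all members, up to 3 genes per list by size of ratio, and the tissue markers. Also named were the 3 genes nearest to each of Sfrp1, Sfrp2 and Dkk3, members left out. Of the tissue markers, Runx2 and Bglap were not analysed here. The members and lists were chosen with earlier results of these data known. Osteoblast, endothelial, Schwann cell and tendon lists were computed as well: of 7, 2, 4 and 6 measured genes, 2, 1, 0 and 2 passed 2-fold upwards and 1, 0, 3 and 0 downwards in the knockout. Of all measured genes, 6.30% passed upwards and 3.46% downwards.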

Additional observations from a re-analysis of the deposited data

How the results depend on the processing

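The 7 measured members were recomputed under 8 alternative settings (Wif1 under 7, since its only probe set is left out in 1 of them); Sfrp5, Dkk1 and Sost, below the floor, were not. Sfrp1, Sfrp2 and Dkk3 stayed past 2-fold in the reported direction under all of them, with log2 ratios of 4.14 to 4.60, 4.34 to 4.53 and -1.76 to -1.40. The floor settings could not move these ratios, since the signals stood above each floor. Nor could the choice of probe sets move that of Sfrp2, which has only 1. Every setting used the same arrays. Dkk2 stayed past 2-fold under all but the pseudocount of 50, where its log2 ratio was 0.86. Frzb (0.16 to 0.69) and Sfrp4 (0.09 to 0.23) stayed under 2-fold. Without a floor, 2 antagonists were at least 2-fold lower in place of 1, because Wif1, which is given no fold, then had a log2 ratio of -2.96 between a signal at background and one below it. The median over the measured antagonists was 0.89 without probe sets whose names end in _s_at, _x_at or _a_at, which leaves out Wif1. Over all genes, the pseudocount of 50 gave 280 at least 2-fold higher and 134 lower, the mean over probe sets 536 and 241, and no floor 997 and 932. No paired analysis was possible because each genotype has 1 array. MAS5 detection calls were not used here, and signals below or just above the floor allow no statement on a difference in Dkk1, Sfrp5, Sost or Wif1.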
